A study of Danio rerio with 6 samples.

Results

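The genes described here are regulators of the haemangioblast, the mesodermal progenitor of blood and vessels, and of the endothelium that lines vessels. They were chosen by name: tal1, lmo2, etv2, fli1, ets1, erg and sox7, which regulate transcription, and kdrl, tie1 and egfl7, which act at the vessel surface or outside the cell. Earlier results of these data were known when they were chosen, so shares over all genes are given as description only. The array annotation named probe sets for 7 of the 10 genes, 9 probe sets in all, of 7356 genes tested. No probe set was named for etv2, sox7 or egfl7, and they were not analysed here. All 9 probe sets passed the filter on low signal, which used siblings and mutants together, and tie1 passed it through its mutant arrays.

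RNA of whole zebrafish embryos, collected 19 hours post fertilization, was hybridised to 6 Affymetrix arrays. In 3 arrays the embryos were mutants for the hanS6 allele of hand2, a transcription factor gene of the heart, arches and fins, and in 3 they were wild-type siblings. Embryos came from 3 separate crosses of hand2 heterozygotes carrying Tg(myl7:egfp), a green fluorescent reporter under a heart muscle promoter, and mutants were picked by that fluorescence. The labels do not say that the siblings were genotyped, so heterozygotes may be among them, and the RNA of an array came from 10 to 25 embryos together. Nothing in the labels says that a replicate number marks a cross. The hand2 probe set checked the genotypes: it was at 349, 448 and 292 in siblings 1, 2 and 3 and at 52.8, 50.9 and 45.1 in mutants 1, 2 and 3 (limma, adjusted p = 0.0051, at least 4.35-fold lower in mutants, which were at background). With sibling 1 or sibling 2 left out, hand2 missed the threshold (limma, adjusted p = 0.060 and 0.054).

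In the lateral plate mesoderm, Etv2 and the Tal1-Lmo2 complex set up endothelial and blood precursors. The ETS factors Fli1, Ets1 and Erg then hold the endothelial programme, and the receptors Kdrl and Tie1 let angioblasts answer vessel growth signals. At the stage sampled, zebrafish angioblasts are assembling the first axial vessels, and primitive blood cells are still forming. The question asked of the arrays was whether these genes differ in signal when hand2 is mutated, and whether the factors differ from the receptors. Signals of different probe sets share no scale, so each gene is compared with itself. Signals summed over a list, given for other tissues, mostly follow its brightest probe sets. In whole embryos, fewer cells of a type and less RNA per cell cannot be told apart.

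All 7 genes had higher fitted values in the mutant, against 50.2% of all tested genes, and none passed the test (limma, adjusted p = 0.942 for each). Their median difference was 0.63 on the log2(signal + 16) scale, against 0.00 over all 7356 genes. A difference at or above that median was found in 1.55% of tested genes. Past the threshold, an adjusted p under 0.05, there were 0 of the 7 genes and 0.0086% of all probe sets, which is hand2 alone. At an unadjusted p under 0.05 there was 1 of the 7 genes, ets1, against 1.82% of all genes counted in that direction. Mutants 1 and 2 were above every sibling in all 7 genes, which held for 13.8% of tested genes. That count leaves out mutant 3, which read low for these genes, and was not among the planned comparisons. All 3 mutant arrays were above all 3 sibling arrays in 2 of the 7, ets1 and tie1, against 3.49%. For ets1 the choice of probe set, and for tie1 the passing of the filter, depended on the mutant arrays.

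**Figure D1:**
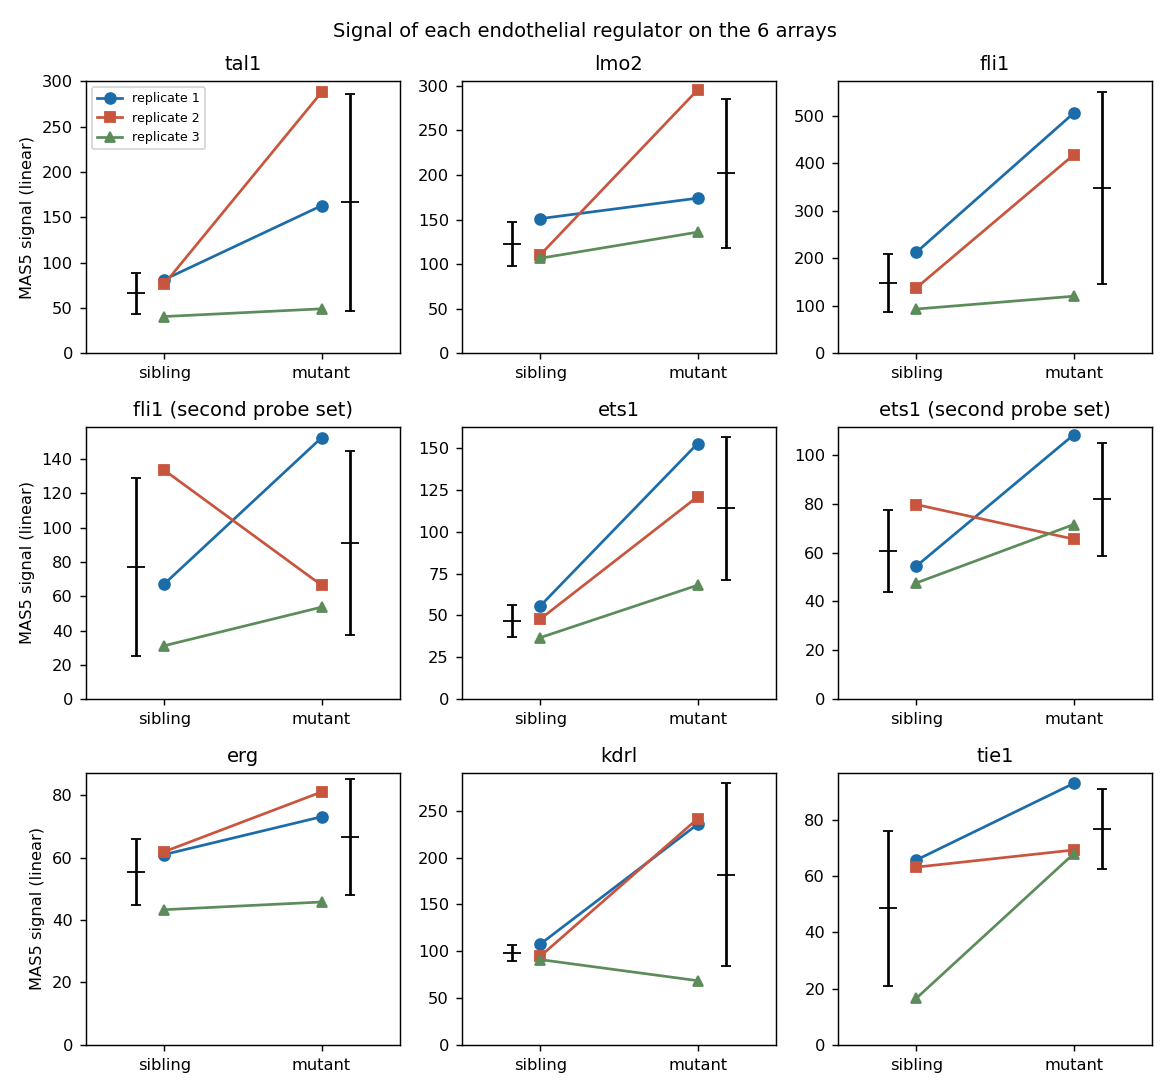
MAS5 signal on a linear axis from 0 for the 9 probe sets, siblings at left and mutants at right. Coloured points and lines join arrays of the same replicate number, and black bars are the mean ± SD (n = 3). Mutants 1 and 2 lie above the siblings in all 7 main panels, while replicate 3, in green, is the lowest number in both genotypes there. The second probe sets of fli1 and ets1 turn the other way at replicate 2.

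Of the progenitor factors, tal1 encodes a basic helix-loop-helix protein needed for blood and endothelial precursors. Its signal was 81.2, 76.3 and 40.6 in siblings 1, 2 and 3 and 163, 288 and 49.1 in mutants 1, 2 and 3. Mutants 1 and 2 stood above all siblings and mutant 3 below siblings 1 and 2, so the groups overlapped. The means were 66.0 ± 22.2 and 167 ± 119 (SD, n = 3 each). The fitted log2 difference was 0.93 with a standard error of 0.48 and a 95% interval from -0.15 to 2.02. Without mutant 2 it was 0.44, and without mutant 3 it was 1.55. Siblings 2 and 3 and mutant 3 were at or below the brightest Tag control, the array's measure of background, so part of the sibling level was not measured. That control read 122 in sibling 2 and 57.0 to 80.2 on the other arrays. Sibling 2 therefore counts as background at signals that count as above it elsewhere.

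The lmo2 product is a LIM-domain protein that bridges Tal1 to its DNA-bound partners. Its signal was 151, 110 and 107 in siblings and 174, 295 and 136 in mutants, in order of replicate number. Mutant 2 was the highest array by far, mutant 3 lay below sibling 1, and sibling 2 was at background. The fitted difference was 0.60 ± 0.28 (SE; 95% interval -0.03 to 1.22). Without mutant 2 it was 0.31.

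Among the ETS factors, fli1 acts in both angioblasts and later vessels. Its signal was 213, 138 and 93.2 in siblings and 506, 418 and 120 in mutants. The means were 148 ± 60.4 and 348 ± 202 (SD, n = 3 each), and all 6 arrays were above background. Mutant 3 lay below siblings 1 and 2. The fitted difference was 1.001 ± 0.47 (SE; 95% interval -0.06 to 2.06), and without mutant 3 it was 1.60.

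A second fli1 probe set did not give the same picture. Its signal was 67.2, 134 and 31.1 in siblings and 153, 66.5 and 53.7 in mutants. It was higher in the mutant at replicates 1 and 3 and lower at replicate 2, where the log2 difference was -0.86 against 1.49 for the brighter probe set. Its fitted difference was 0.24 ± 0.44 (SE). Sibling 3 and mutants 2 and 3 were at background for it.

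The ets1 gene encodes an ETS factor of endothelium that lies beside fli1, with 0 protein-coding genes between them in the RefSeq gene order. Its signal was 55.7, 47.9 and 36.8 in siblings and 153, 121 and 68.1 in mutants. The groups did not overlap, and the mutant was higher at all 3 numbers. The means were 46.8 ± 9.52 and 114 ± 42.8 (SD, n = 3 each; limma, adjusted p = 0.942). All siblings and mutant 3 were at background. Against the Tag controls ets1 was 1.30-fold higher, which is no strict bound because mutant 3 is taken as read.

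The dimmer ets1 probe set was at 54.5, 79.6 and 47.6 in siblings and 108, 65.5 and 71.5 in mutants. As with fli1, it was lower in the mutant at replicate 2 alone, by a log2 difference of -0.23 against 1.101 for the brighter probe set. Both replicate 2 arrays were at background for it, as were the other siblings and mutant 3. Its fitted difference was 0.35 ± 0.24 (SE). Averaging the probe sets of each gene gave 0.68 for ets1 and 0.62 for fli1. Which parts of the transcripts these probe sets cover was not examined here.

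The third ETS factor, erg, a regulator of endothelial identity and junctions, hardly left background. Its signal was 61.0, 61.9 and 43.3 in siblings, all at background, and 73.1, 81.0 and 45.8 in mutants. Mutant 3 was also at background and lay below siblings 1 and 2. No size is given, since the mutants were not above the sibling bound (limma, adjusted p = 0.942).

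Of the vessel receptors, kdrl encodes the receptor for vascular endothelial growth factor that marks zebrafish angioblasts. Its signal was 108, 94.7 and 91.1 in siblings and 236, 242 and 68.6 in mutants. The siblings lay close together, mutants 1 and 2 were far above them, and mutant 3 was the lowest of the 6 arrays. Sibling 2 and mutant 3 were at background. The means were 97.8 ± 8.73 and 182 ± 98.2 (SD, n = 3 each). The fitted difference was 0.63 ± 0.39 (SE; 95% interval -0.23 to 1.503). Without mutant 3 it was 1.16 (limma, adjusted p = 0.115), and kdrl was the only 1 of the 7 genes lower in the mutant at replicate 3 (log2 difference -0.34).

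The tie1 product is a receptor tyrosine kinase of endothelial cells that takes part in angiopoietin signalling. Its signal was 65.7, 63.1 and 16.6 in siblings and 92.8, 69.2 and 67.9 in mutants. The groups did not overlap, but mutants 2 and 3 were only just above sibling 1. Siblings 2 and 3 and mutants 2 and 3 were at background. The fitted difference of 0.63 ± 0.34 (SE) was 0.19 without sibling 3, the one array on which tie1 was far down.

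**Figure D2:**
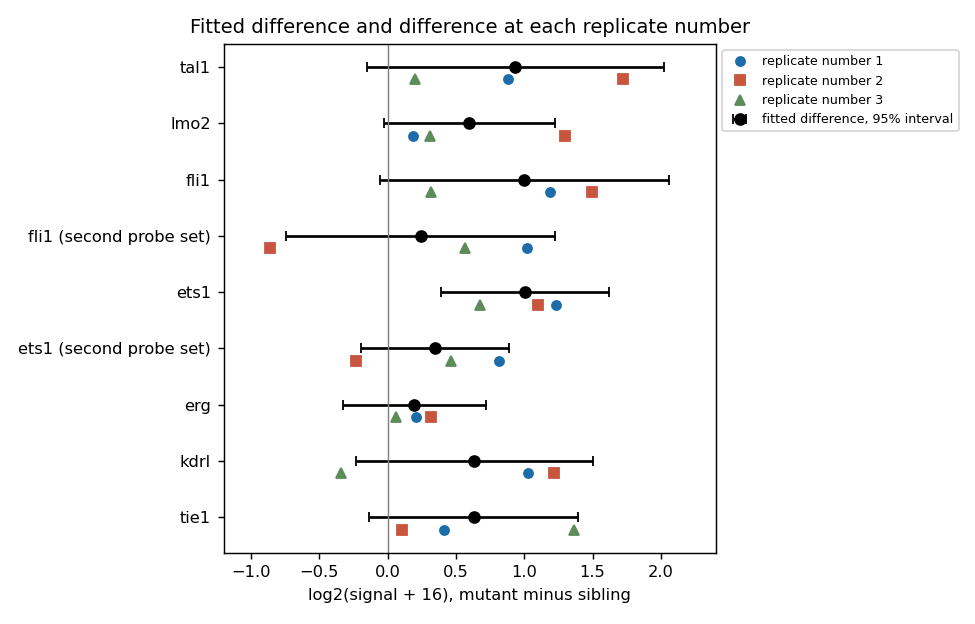
Mutant minus sibling on the log2(signal + 16) scale for each probe set. Black points are limma's fitted differences with 95% intervals (3 arrays a group), and coloured points are the differences at each replicate number. The intervals of all but the brighter ets1 probe set cross 0. The values of ets1 and erg are as read, with siblings at background.

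The arrays of replicate 3 read low for these genes in both genotypes. Replicate 3 was the lowest of its genotype in 7 of 7 genes among siblings and in 7 of 7 among mutants. Over all tested genes, replicate 3 was lowest in both genotypes in 19.7%. In mutants, replicate 3 lay below the mean of replicates 1 and 2 by a log2 difference of -1.84 for tal1, -1.80 for fli1 and -1.59 for kdrl. In siblings the same differences were -0.74, -0.78 and -0.13, so for kdrl the low reading of replicate 3 was almost all in the mutant. For tie1 they were -1.30 in siblings and -0.20 in mutants, with replicate 3 at background in both. With 1 array per genotype and number, whether the genotype difference depends on the number cannot be tested.

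**Figure D3:**
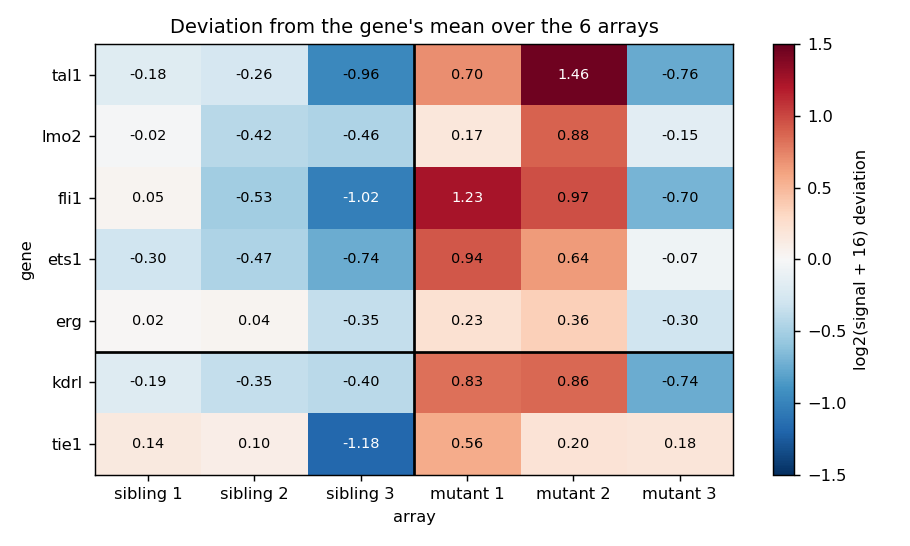
Deviation of each gene from its own mean over the 6 arrays, in log2(signal + 16), by array; red is above and blue below. The horizontal line parts the factors from the receptors and the vertical line the siblings from the mutants. All 7 genes are red in mutants 1 and 2 and blue in sibling 3, and 1 of 7, tie1, is above its mean in mutant 3.

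Compared within replicate numbers, 6 of 7 genes were higher in the mutant at all 3 numbers, the exception being kdrl, against 14.6% of all genes. The labels do not give this pairing, which was taken from these same arrays and was weak at number 2 (correlation 0.1185). The replicate block rests on the same pairing. The median difference of the 7 genes was 0.88 at replicate 1, 1.22 at replicate 2 and 0.31 at replicate 3. With the replicate number as a block, 0 of 7 passed (limma, smallest adjusted p = 0.526, for ets1). At an unadjusted p under 0.05 there were then 5 of 7, namely ets1, fli1, tal1, lmo2 and tie1, with standard errors of 0.20, 0.24, 0.28, 0.25 and 0.26 on the differences given above. The background share in that direction was 4.38% with the block. Without mutant 3 and with no block, 5 of 7 were under 0.05 against 5.72% of genes, and the smallest adjusted p was 0.115 (limma). The count was 4 of 7 without sibling 1, and 1 of 7 without sibling 2, sibling 3, mutant 1 or mutant 2. Shares over all genes were not counted for these.

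The factors and the receptors had no settled order. The median fitted difference was 0.93 over the 5 measured factors and 0.63 over the 2 receptors, 0.30 apart. By replicate number the factors were ahead by 0.16 and 0.64 at replicates 1 and 2 and behind by -0.20 at replicate 3. The order turned to -0.087 without mutant 2 and to -0.011 when probe sets of a gene were averaged. It was -0.033 with ets1 and erg set to their bounds, which left the median of all 7 genes at 0.63. Only genes with all 3 arrays of a genotype at background were so set, and both are factors. The receptor tie1, with 2 siblings and 2 mutants at background, was kept as read. Among the factors whose siblings were not all at background, the fitted values ran from 0.60 for lmo2 to 1.001 for fli1, a wider range than the gap between the classes.

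Lists of other genes of the pathway had smaller medians, and no gene in them passed with all 6 arrays. Of 12 listed partners in blood and vessel specification, 8 were tested, 7 had higher fitted values and 0 passed in either direction (median 0.21). The largest of them was drl, a zinc-finger gene of lateral plate mesoderm, at 77.1 ± 14.6 in the siblings and 424 ± 364 in the mutants (SD, n = 3 each; limma, adjusted p = 0.942). Its groups did not overlap, but mutant 3 at 95.4 was only just above sibling 1 at 89.5, and siblings 2 and 3 were at background. Without mutant 3, drl was 1 of 20 probe sets of 11626 that passed (limma, adjusted p = 0.029). The blood factor gata1a was at background in siblings and at 72.5 ± 29.0 in mutants (SD). Its mutant 3, at 39.2, was also at background and lay below every sibling. The difference was 0.34 ± 0.30 for hhex, whose mutant 3 was the lowest of the 6 arrays, and 0.23 ± 0.23 for gata2a (SE).

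Of 48 listed vascular genes, 22 were tested, 19 had higher and 3 lower fitted values, and 0 passed in either direction (median 0.29). The count of higher values was 16 after quantile normalization and 15 after scaling to a common median. The smallest p was that of fgd5a, an endothelial exchange factor gene, which was at 39.6 ± 5.27 in siblings and 70.5 ± 12.2 in mutants, with all siblings and mutants 2 and 3 at background (limma, adjusted p = 0.942). All siblings of fgd5a lay below the filter's signal of 46.1, so it was tested through its mutants. The water channel gene aqp8a.1 differed by 0.56 ± 0.24 (SE), but was lower in the mutant at replicate 3 (log2 difference -0.11). The semaphorin receptor gene plxnd1 differed by 0.34 ± 0.19 (SE). For apln, an endothelial peptide ligand gene, the difference was 0.48 ± 0.26 (SE), with siblings 2 and 3 at background. The fli1 paralogue fli1rs, which lies beside etv2 in the RefSeq gene order, was at 149, 142 and 113 in siblings and 272, 215 and 124 in mutants. It had the same order of arrays within each genotype as fli1, with replicate 3 lowest, and a fitted difference of 0.49 ± 0.27 (SE). The 3 genes with lower fitted values were angpt2b (-0.37 ± 0.25), cxcr4a (-0.27 ± 0.19) and s1pr1 (-0.12 ± 0.15, all SE). For angpt2b all siblings and mutants 2 and 3 were at background. The cxcr4a log2 difference was -0.36, -0.17 and -0.28 at replicates 1, 2 and 3.

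Markers of other tissues also differed between these arrays, in some lists in the opposite direction, and their part in these results was not tested. All 9 tested erythroid genes had higher fitted values (median 0.89), with a summed signal of 4554 to 5800 in siblings and 5202 to 17467 in mutants, lowest in mutant 3. Of these, slc4a1a and epb41b lay below the filter's signal of 46.1 in every sibling and were tested through their mutants. The erythroid median was 1.94 at replicate 1 and 0.06 at replicate 3. Of 5 pronephros genes, 5 had higher values (median 1.04; summed signal 728 to 1074 and 1038 to 2264), with lhx1a at background on all 6 arrays, and of 6 skeletal muscle genes 5 did (median 0.39; 15602 to 21129 and 14359 to 22230). The 5 myeloid genes had a median of 0.20, with 4 higher (1098 to 1803 and 1381 to 2032). The 4 cardiomyocyte genes were all lower (median -1.04; 470 to 1073 and 180 to 479), with replicate 3 lowest in both genotypes. Mutants were picked by a heart muscle reporter driven from myl7, which is 1 of these 4, so this list is not independent of that choice. The 5 epidermal genes were lower too (43070 to 57135 in mutants, 52716 to 63741 in siblings), although 2 of them were higher after quantile normalization. With all 6 arrays no gene of these lists passed (limma, smallest adjusted p = 0.942), and no marker had a signal of 0. Without mutant 3, 20 of 11626 probe sets passed, 19 of them higher in the mutant. Among these 19 were 3 erythroid genes, slc4a1a, hbbe3 and hbae3 (limma, adjusted p = 0.021, 0.048 and 0.047). The pronephros genes atp1a1a.4 and hnf1bb were also among them (limma, adjusted p = 0.029 and 0.033), against 0 of the 7 endothelial regulators. For slc4a1a and hnf1bb all 3 siblings were at background, and both passed the filter through their mutant arrays. Mutant 1 had an actc1b 3' to 5' log2 ratio of 2.18 against 3.31 to 3.91 elsewhere. The highest actc1b ratio was that of mutant 2. For gapdh the log2 ratio was 1.73 in mutant 1, the lowest array, 2.05 in mutant 2 and 2.08 in mutant 3, the highest. The part of these ratios in the results was not tested.

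**Figure D4:**
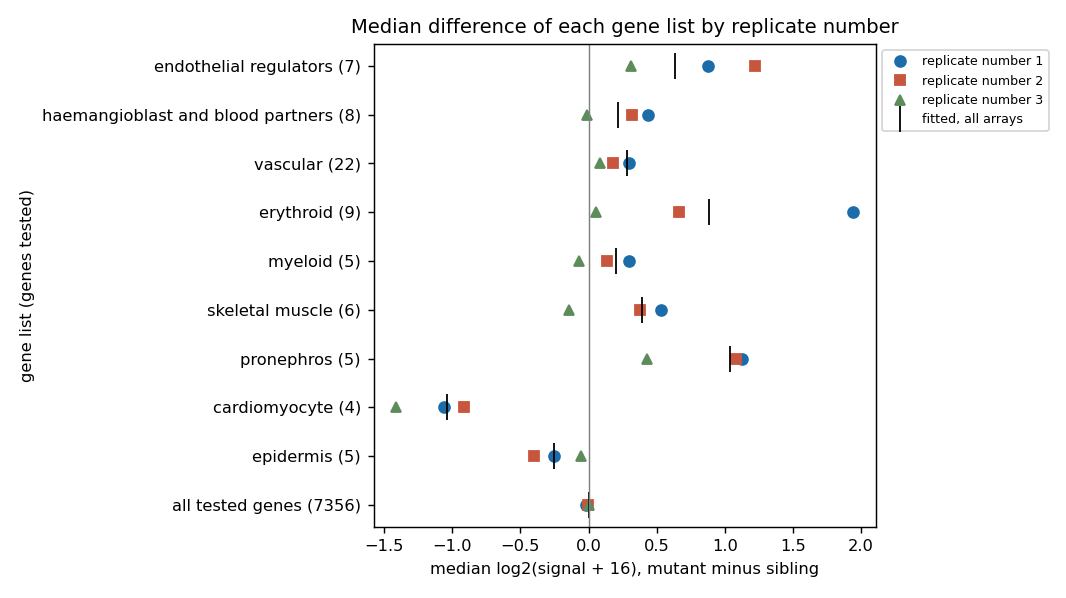
Median mutant minus sibling difference in log2(signal + 16) for the 7 endothelial regulators and for gene lists of other tissues, with the number of genes tested in brackets. Coloured points are the 3 replicate numbers and black ticks the fit over all arrays. The endothelial regulators are above 0 at all 3 numbers, as are the vascular, erythroid and pronephros lists, and replicate 3 is nearest to 0 in each of these.

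Genes outside the chosen ones were nearer in pattern to tal1 and to kdrl than any other chosen gene was. Likeness was the root mean square difference of centred log2(signal + 16) over the 6 arrays, among 3535 brighter genes with ordinary names. Nearest to tal1 were smyhc1, a slow muscle myosin gene (0.264), cdh17, a cadherin gene of the pronephros (0.287), and fn1a, which encodes fibronectin (0.316). Of the chosen genes fli1 and kdrl came closest to tal1, at 0.332 and 0.342. Nearest to kdrl were mef2d (0.128), rbm47 (0.137) and smyhc1 (0.145), whereas fli1, the closest of the chosen genes, stood at 0.328. The smyhc1 signal was 1215, 1044 and 813 in siblings and 2634, 2601 and 828 in mutants, the same 2 high mutants and low mutant 3 that kdrl showed. The likeness, picked from many candidates over 6 arrays, is given as a description only.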

How the data were processed

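The deposited table gives a linear signal intensity for each probe set on each array. Per the submitters' processing notes the authors used MAS5; its version, detection calls and a genome build were not found in the labels. The mean after trimming 2% from each end was 500.1 on all arrays, so no further scaling was applied. Of 15617 probe sets, 115 controls and the lowest 25% of the rest by mean log2 signal were left out, which left 11626. Symbols came from the array annotation, updated by gene identifier to RefSeq (assembly GRCz12tu; 10711 of 10795 probe sets with 1 symbol matched). The probe set of highest mean stood for a gene.

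Genotype was fitted on log2(signal + 16) with limma 3.58.1 in R 4.3.3 (intensity trend, 2-sided, Benjamini-Hochberg over 11626 probe sets), and the code was tested on simulated data. The offset understates changes of dim genes. A genotype was at background where all 3 arrays lay at or below the array's brightest of 17 Tag controls (57.0 to 122.3, the highest in sibling 2). The replicates are pools, and p-values measure the spread between these arrays, whose number limits precision. Array medians were 152 to 177, and log2(signal + 16) correlated between arrays at 0.964 to 0.987. The reported fit had genotype alone, with no pairing. Deviations from the genotype means correlated at 0.193, 0.1185 and 0.482 within numbers 1, 2 and 3. On the data alone, arrays of 1 number were therefore treated as a pair, but only in comparisons within numbers and in the replicate block. Mutant 2 correlated slightly better with sibling 1 (0.203).

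The genes and lists were chosen with earlier results of these data known, and no test is given over them as a set. Named genes are the chosen ones, hand2 and up to 4 of smallest p in the partner and vascular lists. The 3 nearest in pattern to tal1 and to kdrl are also named. Added after their values were seen were fli1rs, lhx1a, epb41b, the 3 lower vascular genes, and listed genes that passed without mutant 3. Alternatives were offsets of 1 and 64, no filter or the lowest 50% left out, quantile or median scaling, array weights, the replicate block, averaged probe sets, and arrays or numbers left out.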

Additional observations from a re-analysis of the deposited data

How the results depend on the processing

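All 7 genes kept higher fitted values, and 0 passed, under all 18 alternatives in which they were tested. With the dimmer 50% of probe sets removed, fli1 alone of them was tested, the factors could not be set against the receptors, and 0 probe sets passed, as hand2 was removed. The count of probe sets past the threshold ran from 0 to 20 with arrays or numbers left out, 20 being without mutant replicate 3. The median of the 7 genes ran from 0.44 without mutant replicate 2 to 1.16 without mutant replicate 3, and was 0.86 and 0.51 with offsets of 1 and 64. The factors minus receptors gap ran from -0.087 without mutant replicate 2 to 0.48 without replicate 3. It was also below 0 without replicate 2 (-0.075) and with averaged probe sets (-0.011). The replicate block left the gap at 0.30, the median at 0.63 and the count past the threshold at 1. Scaling moved the median of all probe sets from 0.02 to -0.01 (quantile) or -0.06 (common median). Dim signal limits erg, ets1, tie1 and tal1, each at background on at least 3 arrays. The causes of these shifts were not tested.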

Other observations

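The ETS gene ets2, chosen after its values were seen because it lies beside erg in the RefSeq gene order, was at 243, 231 and 304 in siblings and 225, 304 and 293 in mutants. It differed by 0.07 ± 0.20 (SE), and its replicate 3 was not the lowest in either genotype.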
